A study of Mus musculus with 6 samples.

Results

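The genes described here encode the vacuolar proton pump (V-ATPase) and a set of lysosomal enzymes and membrane proteins. They were taken by a rule on gene names: every gene whose symbol begins with Atp6v0 or Atp6v1, the accessory genes Atp6ap1 and Atp6ap2, and 26 named lysosomal genes. The rule found 50 of the 22740 genes in the table, of which 24 belong to the proton pump and 26 to the lysosomal set. The cells are B16-F3, a mouse melanoma line grown without any stated treatment. They were sorted by flow cytometry, using the light scatter of intracellular melanin, into high-pigmented cells (HPC, 3 libraries) and low-pigmented cells (LPC, 3 libraries). Both populations come from the same line and carry no stated genetic change, and the labels do not state whether the libraries of 1 population stem from independent cultures, so every p-value reflects spread among these 6 libraries alone, and that spread may be technical. Each library counts reads at the 3' ends of polyadenylated transcripts, and the comparison asks which mRNA levels go with pigmentation.

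Lysosomes break down proteins, glycans and lipids with hydrolases that work at acid pH, and the V-ATPase makes that acidity by pumping protons. Its V1 sector lies in the cytosol and hydrolyses ATP, and its V0 sector lies in the membrane and carries the protons. Melanosomes, the organelles in which melanin is made, are related to lysosomes, carry the same pump, and need a controlled pH because tyrosinase works poorly in acid. Many lysosomal genes are transcribed under TFEB, TFE3 and MITF, related factors that bind the sequence CACGTG and its extensions, and MITF is also the main regulator of the melanocyte lineage.

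Before the values, promoter matches are shown, which some of the members share. Members were chosen by name, and many lysosomal genes are known to be transcribed under factors that bind CACGTG. A higher share than among all genes can follow from that choice and is not read as a result of these data. The 300-base RefSeq windows (250 bases before to 50 after an annotated start, GRCm38.p6) were available for 40 of the 50 members and were searched for CACGTG and for TCACGTGA, which contains it. Each motif reads the same on both strands. CACGTG was in the windows of 13 of 40 members (32.5%), against 2187 of 27025 genes with a window (8.09%) and 1073 of the 8929 genes that were tested here and had one. TCACGTGA was in 7 of 40 members (17.5%), against 1.12% of all genes with a window. Among tested genes with a window, it was in 7 of 36 members (19.4%), against 2.27% of genes. Counted by window, CACGTG was in 7.15% and TCACGTGA in 0.974% of all 32851 windows. A match is a description of these letters and not a shown binding site. The 7 members with TCACGTGA are printed 5' to 3' on the strand of the gene, with every match in capitals:
Atp6v1a: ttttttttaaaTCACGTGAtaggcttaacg
Atp6v0d1: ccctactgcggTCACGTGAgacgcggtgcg
Atp6v0e: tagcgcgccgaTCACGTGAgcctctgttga
Gla: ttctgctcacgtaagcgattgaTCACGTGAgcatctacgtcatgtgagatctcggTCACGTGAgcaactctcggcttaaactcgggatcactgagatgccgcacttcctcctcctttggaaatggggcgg
Ctsa: ctgTCACGTGAtgcagatgcTCACGTGAcc
Ctsd: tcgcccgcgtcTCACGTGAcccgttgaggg
Cln3: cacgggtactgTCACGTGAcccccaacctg

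The Atp6v1a stretch is chr16:44139373-44139402 on the minus strand, and its match begins 132 bases before the RefSeq start. The Gla stretch, chrX:134601126-134601255 on the minus strand, holds 2 matches, 228 and 195 bases before the start, and is given at greater length because it ends where the GENCODE gene begins. The Ctsa stretch, chr2:164833757-164833786 on the plus strand, also holds 2 matches, which begin 13 bases before and 4 bases after the start. The others are chr8:105566050-105566079 (minus) for Atp6v0d1, chr17:26676387-26676416 (plus) for Atp6v0e, chr7:142387908-142387937 (minus) for Ctsd and chr7:126583340-126583369 (minus) for Cln3. Distances are from the RefSeq start of the window. By the GENCODE bounds, the stretches of Atp6v1a, Atp6v0e, Ctsa, Ctsd and Cln3 lie inside the gene, and those of Gla and Atp6v0d1 before it. The log2 fold changes of these 7 genes, HPC over LPC, spread from -0.24 for Cln3 to 0.52 for Gla.

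Of the 50 members, 45 had enough counts to be tested, 20 of the proton pump and 25 of the lysosomal set. No member of either group passed (edgeR quasi-likelihood test, adjusted p under 0.05), as against 5 of all 11921 tested genes (0.0419%), which were all lower in HPC (0% higher). At an unadjusted p under 0.05 there were 4 members, all higher in HPC, against 9.37% of all tested genes in either direction and 5.06% higher: Atp6v1a, Atp6v1b2, Gla and Laptm4b. DESeq2, run beside edgeR, called Atp6v1a alone among the members (1.88% of tested genes were called, 1.02% as higher in HPC), and limma-voom called none. The groups of libraries did not overlap for 7 tested members, in each of which all HPC libraries lay above all LPC libraries, while over all tested genes 7.16% lay wholly above and 7.18% wholly below. Of the 45, 35 had a positive log2 fold change, against 48.2% of all tested genes.

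The differences were small. The median log2 fold change, HPC over LPC, was 0.12 over the 20 proton pump genes and 0.12 over the 25 lysosomal genes, beside -0.01 over all tested genes. The lysosomal median rested on single libraries more than the pump median did: it was 0.059 without HPC replicate 1, 0.046 without HPC replicate 3, 0.056 without LPC replicate 1 and 0.19 without HPC replicate 2. Leaving out each library in turn kept the pump median between 0.094 and 0.15. Because these are bulk libraries, a difference in the share of cells that express a gene and a difference in its RNA per cell cannot be told apart.

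**Figure D1:**
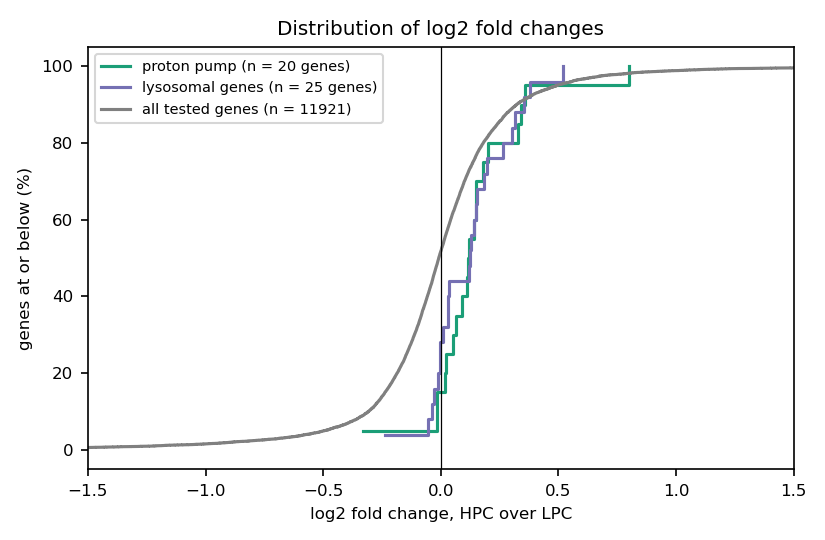
Cumulative share of genes (y axis, percent) at or below each log2 fold change, HPC over LPC (x axis), for 20 proton pump genes, 25 lysosomal genes and all 11921 tested genes. Both member curves lie to the right of the curve of all genes through its middle, with medians of 0.12 and 0.12 against -0.01, and all 3 curves meet near the top.

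Total counts ran from 18131623 to 22186743 in HPC libraries and from 14695822 to 18810435 in LPC libraries, so that 1 count stands for 0.0451 to 0.0675 CPM (counts scaled to a common library size with TMM factors). Melanocyte genes were abundant in every library, with a summed level of 34609 to 38376 CPM over 8 marker genes in HPC and 33241 to 35687 CPM in LPC. Macrophages are rich in lysosomal transcripts, and 11 of 12 listed macrophage and leukocyte markers were in the table. Their summed level was 2.80 to 5.22 CPM in HPC and 2.70 to 4.23 CPM in LPC, and 5 of them, the leukocyte gene Ptprc among them, had no count in any library. Cd68, also abundant in macrophages, was placed in another list and is not in this sum. It had 6.95 to 12.9 CPM in HPC and 2.63 to 7.10 CPM in LPC, and which cells its reads stem from was not tested. The summed level of 10 fibroblast, endothelial and keratinocyte markers was 2.75 to 3.10 CPM in HPC and 3.12 to 4.18 CPM in LPC. Mitochondrial transcripts took 3.21% of counts in HPC replicate 1, the highest share, and 2.07% to 2.56% elsewhere.

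The head of the V1 sector is a ring of alternating A and B subunits, where ATP is hydrolysed. Atp6v1a, the gene of the catalytic A subunit, had 503, 496 and 494 CPM in HPC replicates 1, 2 and 3, against 373, 378 and 414 CPM in LPC replicates 1, 2 and 3. The HPC libraries lay close together and wholly above the LPC libraries, which spread more widely. The ratio was 1.28 (log2 fold change 0.36, SE 0.10, edgeR adjusted p = 0.30, unadjusted p = 0.0071). DESeq2 called it (adjusted p = 0.022), and over the alternatives to the fit without the block, the blocked fit included, the adjusted p ran from 0.022 to 0.87. In the blocked fit without the pair numbered 1 it was 0.0019, with 1 residual degree of freedom. Its log2 fold change stayed between 0.33 and 0.41 whichever library was left out. Atp6v1a (ENSMUSG00000052459) spans bases 44085402 to 44139705 of chromosome 16 (minus strand, GENCODE M21 on GRCm38), where no other gene overlaps it.

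Atp6v1b2, the B subunit gene used in most tissues, had 688, 594 and 572 CPM in HPC replicates 1, 2 and 3, against 472, 506 and 486 CPM in LPC replicates 1, 2 and 3. Again the groups did not overlap, with HPC replicate 1 standing above the other HPC libraries. The ratio was 1.27 (log2 fold change 0.34, SE 0.11, edgeR adjusted p = 0.40), and without HPC replicate 1 or any other library the log2 fold change remained at or above 0.26. Atp6v1b2 (ENSMUSG00000006273, chromosome 8 from 69088646 to 69113711, plus strand) overlaps Slc18a1 on the opposite strand, and since the use of strand in counting is not given, reads of that gene cannot be told apart from its own. The other B subunit gene, Atp6v1b1, known from kidney, had 0, 3 and 1 counts in HPC replicates 1, 2 and 3, against 0, 0 and 1 in LPC replicates 1, 2 and 3, which was too few to test.

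**Figure D2:**
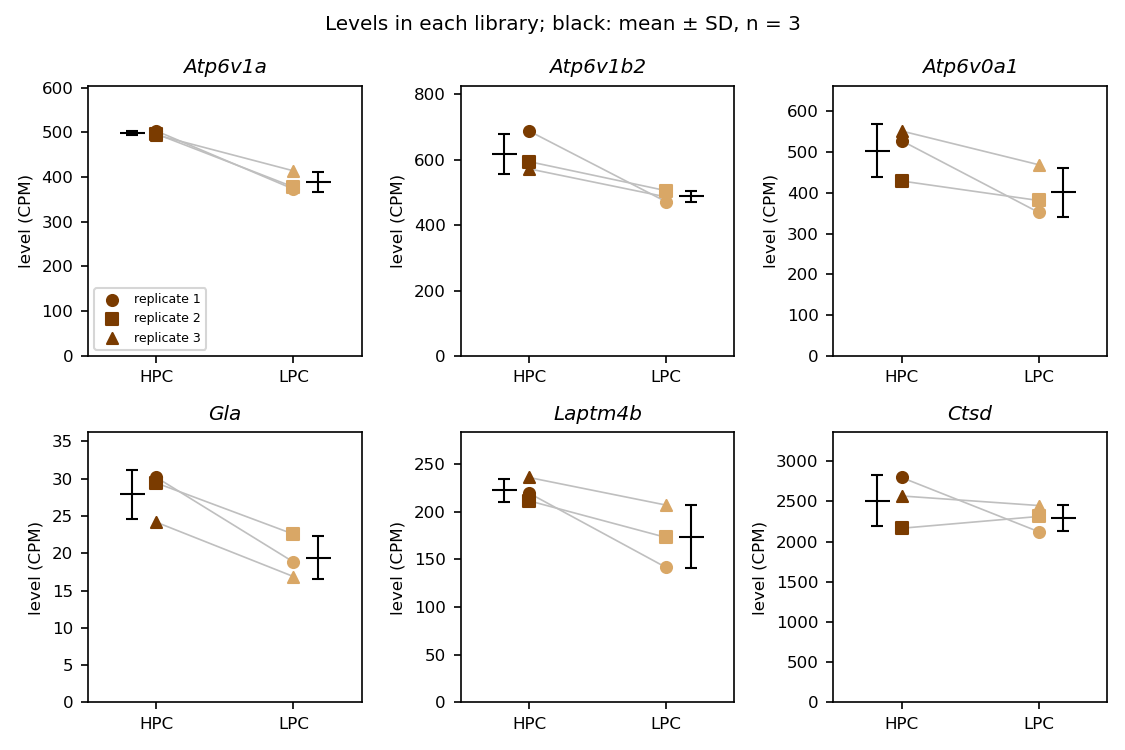
Levels in CPM (y axis, from 0) of 6 members in each library of HPC (left) and LPC (right), with the replicate number as the marker, grey lines joining equal numbers, and the mean ± SD of 3 libraries in black. HPC libraries lie wholly above LPC libraries for Atp6v1a, Atp6v1b2, Gla and Laptm4b, and the groups overlap for Atp6v0a1 and Ctsd.

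Of the 10 tested V1 genes 8 had a log2 fold change above 0, the median being 0.15, and 4 had groups that did not overlap. Besides the A and B subunits these were Atp6v1d, of the rotating central stalk, and Atp6v1c1, of the peripheral stalk that holds the ring in place. Atp6v1d stood at 247, 225 and 234 CPM in HPC replicates 1, 2 and 3, against 196, 212 and 207 CPM in LPC replicates 1, 2 and 3 (log2 fold change 0.20, SE 0.10, edgeR adjusted p = 0.61). All 3 HPC libraries were above the highest LPC library. Atp6v1c1 stood at 252, 261 and 234 CPM in HPC replicates 1, 2 and 3, against 230, 230 and 214 CPM in LPC replicates 1, 2 and 3 (log2 fold change 0.15, SE 0.10, edgeR adjusted p = 0.73). Here the lowest HPC library was only just above the highest LPC libraries.

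The stalk genes Atp6v1e1, Atp6v1f, Atp6v1g1 and Atp6v1h had overlapping groups and log2 fold changes of 0.05, 0.02, 0.15 and 0.14. Atp6v1g1 had 119, 128 and 127 CPM in HPC replicates 1, 2 and 3, against 95.3, 121 and 120 CPM in LPC replicates 1, 2 and 3, where LPC replicate 1 was the low library, and without it the log2 fold change of Atp6v1g1 was 0.048. Atp6v1e1, among the most abundant pump transcripts by reads, had 608, 438 and 449 CPM in HPC replicates 1, 2 and 3, against 477, 448 and 514 CPM in LPC replicates 1, 2 and 3. HPC replicate 1 alone was above the LPC range, and without it the log2 fold change of Atp6v1e1 was -0.11. Atp6v1f, of the central stalk, had a low LPC library instead, with 174, 157 and 160 CPM in HPC replicates 1, 2 and 3, against 120, 180 and 186 CPM in LPC replicates 1, 2 and 3. The tissue-restricted paralogues Atp6v1c2 and Atp6v1g2 had few reads. Atp6v1c2 had 2.58, 3.29 and 4.63 CPM in HPC replicates 1, 2 and 3, against 2.50, 3.12 and 5.02 CPM in LPC replicates 1, 2 and 3. Atp6v1g2, known from brain, had 3.71, 1.89 and 1.53 CPM in HPC replicates 1, 2 and 3, against 2.97, 3.01 and 2.95 CPM in LPC replicates 1, 2 and 3, so that 2 HPC libraries lay below LPC and 1 above (log2 fold change -0.33, SE 0.36). The log2 fold change of Atp6v1g2 ran from -0.79 without HPC replicate 1 to -0.095 without HPC replicate 3. Atp6v1e2 and Atp6v1g3 had no count in any library.

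In the membrane sector V0, 7 of 8 tested genes had a log2 fold change above 0, the median being 0.12, and none had groups that did not overlap. Atp6v0a1 encodes an a subunit, the arm that forms the proton path beside the ring of c subunits. It had 527, 429 and 551 CPM in HPC replicates 1, 2 and 3, against 352, 381 and 469 CPM in LPC replicates 1, 2 and 3. The groups overlapped only in that LPC replicate 3 exceeded HPC replicate 2, and each HPC library was above the LPC library of its own number. The ratio was 1.25 (log2 fold change 0.33, SE 0.15, edgeR adjusted p = 0.56). Atp6v0a4, the a subunit gene known from kidney, had 5.45, 3.29 and 3.10 CPM in HPC replicates 1, 2 and 3, against 3.37, 2.27 and 1.14 CPM in LPC replicates 1, 2 and 3. Its log2 fold change was the highest of all members at 0.80, but its SE of 0.42 was also the widest and it did not pass (edgeR adjusted p = 0.63). Its log2 fold change was 0.50 without HPC replicate 1, 0.49 without LPC replicate 3 and 1.19 without LPC replicate 1. Atp6v0a4 overlaps D630045J12Rik on its own strand.

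The other V0 genes lay closer together. Atp6v0a2 had 137, 110 and 117 CPM in HPC replicates 1, 2 and 3, against 133, 97.0 and 106 CPM in LPC replicates 1, 2 and 3. Atp6v0b, the gene of the c'' subunit, Atp6v0d1, which couples V0 to the central stalk, and the small subunit genes Atp6v0e and Atp6v0e2 had log2 fold changes of 0.18, 0.07, 0.09 and 0.12. Atp6v0e stood at 131, 108 and 91.7 CPM in HPC replicates 1, 2 and 3, against 97.3, 113 and 100 CPM in LPC replicates 1, 2 and 3, and Atp6v0e2 at 300, 234 and 309 CPM in HPC replicates 1, 2 and 3, against 253, 238 and 284 CPM in LPC replicates 1, 2 and 3. Both sets of libraries overlapped. Atp6v0c, which encodes the proton-carrying c subunit, averaged 94.9 ± 17.8 CPM across HPC libraries against 95.9 ± 8.95 CPM across LPC (SD, n = 3 each). Its count is uncertain because GENCODE lists 2 processed copies of it. Atp6v0d2, known from osteoclasts, had 1, 2 and 1 counts in HPC replicates 1, 2 and 3 and none in LPC, under the 3 counts taken here as the floor.

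The accessory gene Atp6ap1, which takes part in pump assembly, had 366, 339 and 367 CPM in HPC replicates 1, 2 and 3, against 315, 338 and 338 CPM in LPC replicates 1, 2 and 3. Its groups did not overlap, although HPC replicate 2 and 2 LPC libraries were almost level (log2 fold change 0.11, SE 0.10, edgeR adjusted p = 0.81). Atp6ap2, the prorenin receptor gene, averaged 180 ± 7.62 CPM across HPC libraries against 178 ± 9.01 CPM across LPC (SD, n = 3 each).

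**Figure D3:**
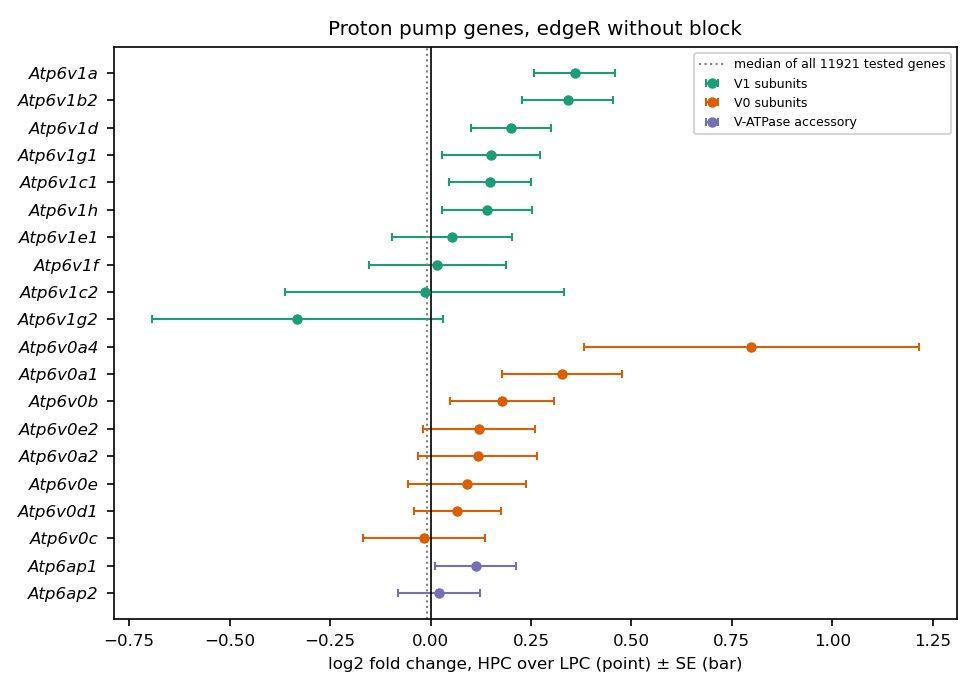
Log2 fold change of the 20 tested proton pump genes, HPC over LPC (x axis, point), with its standard error (bar), ordered by sector. Atp6v1a and Atp6v1b2 lead the V1 genes at 0.36 and 0.34, Atp6v0a4 and Atp6v1g2 have the widest errors, and the dotted line marks the median of all tested genes.

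The a subunit exists in several forms that direct the pump to different membranes, and the share of a subunit reads that each form held was compared between the populations. Tcirg1, which encodes the a3 form but whose symbol is outside the naming rule, was counted with them. Atp6v0a1 held 54.5%, 53.2% and 54.4% of these reads in HPC replicates 1, 2 and 3, against 46.0%, 47.3% and 50.2% in LPC replicates 1, 2 and 3. Tcirg1 held 30.8%, 32.7% and 33.7% in HPC replicates 1, 2 and 3, against 36.2%, 40.3% and 38.3% in LPC replicates 1, 2 and 3. The groups did not overlap for either share, with exact two-sided permutation p = 0.1 for each, the smallest that 3 against 3 libraries allow. The shares of 1 subunit are not independent of each other, and in CPM the groups overlapped for both genes. Over all tested genes, 14.3% had CPM groups that did not overlap, in either direction. How often shares of other gene sets would separate was not tested. The shares of Atp6v0a2 averaged 13.1% in HPC and 13.6% in LPC and overlapped. Among the e subunit genes, Atp6v0e2 held 71.7% of reads in HPC and 71.3% in LPC on average, and Atp6v1c1 and Atp6v1g1 held 98.6% and 98.1% of the reads of their pairs in HPC and 98.4% and 97.4% in LPC. The shares of 10 genes were compared in this way.

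Of the 18 tested hydrolases and their cofactors 14 had a log2 fold change above 0, the median being 0.13. The glycosidases, which trim sugars from glycoproteins and glycolipids, had the highest median of the hydrolase groups, 0.27 over 7 genes, of which 6 were positive. Gla, alpha-galactosidase A, had 30.1, 29.4 and 24.1 CPM in HPC replicates 1, 2 and 3, against 18.8, 22.6 and 16.9 CPM in LPC replicates 1, 2 and 3. All HPC libraries lay above all LPC libraries. The ratio was 1.44 (log2 fold change 0.52, SE 0.16, edgeR adjusted p = 0.35), and the log2 fold change ran from 0.43 to 0.66 as each library was left out. Gla (ENSMUSG00000031266) spans bases 134588149 to 134601125 of chromosome X (minus strand), where no other gene overlaps it.

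Neu1, the lysosomal sialidase, had 167, 126 and 188 CPM in HPC replicates 1, 2 and 3, against 98.2, 119 and 152 CPM in LPC replicates 1, 2 and 3. Each HPC library exceeded the LPC library of its number, but HPC replicate 2 fell within the LPC range (log2 fold change 0.38, SE 0.20, edgeR adjusted p = 0.62). Its log2 fold change was 0.25 without HPC replicate 3 and 0.24 without LPC replicate 1. Gaa, acid alpha-glucosidase, which degrades glycogen, had 476, 550 and 721 CPM in HPC replicates 1, 2 and 3, against 401, 496 and 522 CPM in LPC replicates 1, 2 and 3 (log2 fold change 0.30, SE 0.18, edgeR adjusted p = 0.68). HPC replicate 3 was the highest library by a wide margin, and without it the log2 fold change of Gaa was 0.12. Man2b1, lysosomal alpha-mannosidase, had 226, 224 and 287 CPM in HPC replicates 1, 2 and 3, against 180, 205 and 228 CPM in LPC replicates 1, 2 and 3 (log2 fold change 0.27, SE 0.14, edgeR adjusted p = 0.64). Without HPC replicate 3 the log2 fold change of Man2b1 was 0.14. Gusb and Glb1, beta-glucuronidase and beta-galactosidase, had log2 fold changes of 0.18 and 0.12. Hexa, a subunit of beta-hexosaminidase, averaged 645 ± 87.5 CPM across HPC libraries against 646 ± 37.6 CPM across LPC (SD, n = 3 each).

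All 5 tested peptidase genes had a log2 fold change above 0, the median being 0.13 and overlapping groups. Ctsd, the aspartic protease cathepsin D, was the member with the most reads, at 2799, 2167 and 2569 CPM in HPC replicates 1, 2 and 3, against 2125, 2314 and 2450 CPM in LPC replicates 1, 2 and 3. HPC replicate 2 lay inside the LPC range (log2 fold change 0.13, SE 0.13, edgeR adjusted p = 0.83). Leaving out libraries gave Ctsd a log2 fold change of 0.052 without HPC replicate 1, 0.078 without LPC replicate 1 and 0.23 without HPC replicate 2. Ctsd overlaps the model Gm49369 on its own strand, so its count is uncertain to that extent. Ctsb, the cysteine protease cathepsin B, had 1176, 1050 and 1172 CPM in HPC replicates 1, 2 and 3, against 650, 1000 and 1080 CPM in LPC replicates 1, 2 and 3. LPC replicate 1 stood far below the other libraries, and without it the log2 fold change of Ctsb was 0.12, against 0.32 with it. Tpp1, Ctsa and Ctsl had log2 fold changes of 0.15, 0.12 and 0.01. Ctsk, cathepsin K, known from osteoclasts, was at 0.139 CPM in HPC against 0.165 CPM in LPC on average, too low to test.

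The 6 enzymes and cofactors of lipid and sulfate breakdown had a median log2 fold change of 0.01, with 3 positive and 3 negative. Psap, the precursor of the saposins that help enzymes reach their lipids, had 991, 906 and 1154 CPM in HPC replicates 1, 2 and 3, against 809, 921 and 1037 CPM in LPC replicates 1, 2 and 3 (log2 fold change 0.14, SE 0.14). As each library was left out, the log2 fold change of Psap ran from 0.041 without HPC replicate 3 to 0.23 without LPC replicate 3. Grn, progranulin, averaged 671 ± 75.5 CPM across HPC libraries against 657 ± 33.8 CPM across LPC, and Npc2, a cholesterol carrier, 396 ± 45.5 CPM across HPC libraries against 404 ± 81.4 CPM across LPC (SD, n = 3 each). Asah1, acid ceramidase, had the tightest libraries of the group, between 222 and 234 CPM in HPC and between 213 and 229 CPM in LPC. Lipa, lysosomal acid lipase, and Sgsh, a heparan sulfate sulfamidase, had log2 fold changes of -0.06 and -0.01, within their SEs of 0.19 and 0.12.

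**Figure D4:**
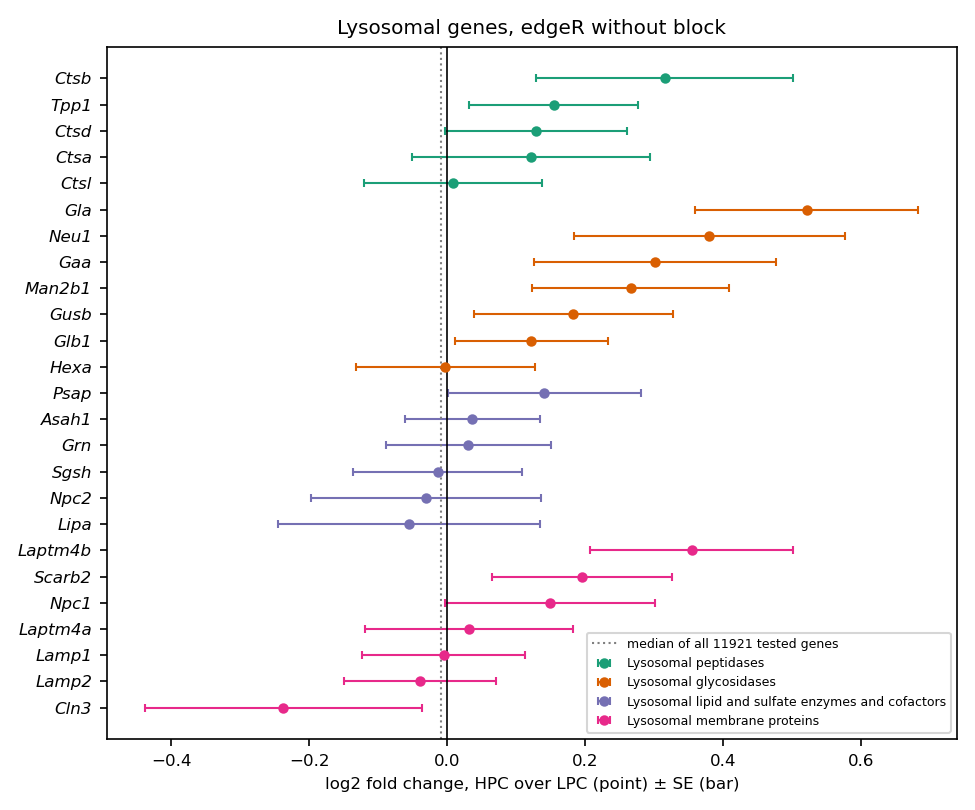
Log2 fold change of the 25 tested lysosomal genes, HPC over LPC (x axis, point), with its standard error (bar), ordered by class. Gla at 0.52 is the rightmost gene and Cln3 at -0.24 the leftmost. The glycosidases have a higher median than the lipid and sulfate enzymes (0.27 against 0.01), but the points of the 2 classes overlap.

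The 7 membrane protein genes centred on a median log2 fold change of 0.03, with 4 positive. Laptm4b, a transmembrane protein of late endosomes and lysosomes, had 219, 211 and 236 CPM in HPC replicates 1, 2 and 3, against 142, 173 and 207 CPM in LPC replicates 1, 2 and 3. The groups did not overlap, though LPC replicate 3 came close to the HPC range (ratio 1.28, log2 fold change 0.35, SE 0.15, edgeR adjusted p = 0.52). Without LPC replicate 1 its log2 fold change was 0.23. Its relative Laptm4a had 663, 475 and 553 CPM in HPC replicates 1, 2 and 3, against 522, 511 and 622 CPM in LPC replicates 1, 2 and 3 (log2 fold change 0.03, SE 0.15). Laptm4b (ENSMUSG00000022257, chromosome 15 from 34238028 to 34284302, plus strand) overlaps Gm18949 on the opposite strand.

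Lamp1 and Lamp2 encode the main glycoproteins that line the lysosomal membrane. Lamp1 had 1202, 980 and 1149 CPM in HPC replicates 1, 2 and 3, against 1107, 1072 and 1165 CPM in LPC replicates 1, 2 and 3, and Lamp2 had 408, 387 and 359 CPM in HPC replicates 1, 2 and 3, against 390, 371 and 425 CPM in LPC replicates 1, 2 and 3. The groups overlapped for both genes, with LPC replicate 3 above and HPC replicate 3 below all other libraries for Lamp2 (log2 fold changes -0.01 and -0.04, SEs 0.12 and 0.11). Npc1, the membrane cholesterol transporter, and Scarb2, the receptor that carries glucocerebrosidase to lysosomes, had log2 fold changes of 0.15 and 0.20. Cln3, a lysosomal membrane protein gene mutated in Batten disease, had 19.03, 15.97 and 20.03 CPM in HPC replicates 1, 2 and 3, against 16.7, 20.8 and 27.3 CPM in LPC replicates 1, 2 and 3. It had the lowest log2 fold change of the lysosomal set, -0.24 (SE 0.20, edgeR adjusted p = 0.79), with overlapping groups. Without LPC replicate 3 the log2 fold change of Cln3 was -0.036, without HPC replicate 2 it was -0.15, and without LPC replicate 1 it was -0.39.

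The populations share replicate numbers, and libraries of the same number deviated together, so the differences within each number were also examined. In the pair numbered 1, 44 of the 45 tested members were higher in HPC, and in the pairs numbered 2 and 3 it was 27 and 27. Of all 11921 tested genes, 5989, 5769 and 5794 were higher in HPC in pairs 1, 2 and 3. The median difference on the log2(CPM + 0.5) scale was 0.30, 0.071 and 0.047 in pairs 1, 2 and 3 for the pump genes, and 0.25, 0.045 and 0.091 for the lysosomal genes. Over all tested genes the medians of the 3 pairs were 0.0016, -0.012 and -0.0088. HPC replicate 1 had the highest summed level of pump genes, 5149 CPM, with 4501 and 4638 CPM in HPC replicates 2 and 3. LPC replicate 1 had the lowest, 4011 CPM, with 4209 and 4399 CPM in LPC replicates 2 and 3. The part that the high mitochondrial share of HPC replicate 1 has in this was not tested. In all 3 pairs 20 members were higher in HPC (19.6% of all tested genes) and none was lower (21.3%). All 3 pairs had differences above 0.25 for Atp6v1a (0.43, 0.39 and 0.26), Gla (0.67, 0.38 and 0.50) and Atp6v0a4 (0.62, 0.45 and 1.14).

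With the replicate number as a block, no member passed either (edgeR adjusted p under 0.05), against 301 of 11921 genes (2.52%, those higher in HPC making up 1.43%). The log2 fold change of the blocked fit was positive for 35 of the 45 members and for 48.9% of all genes. The smallest adjusted p among the members was 0.066, for Gla, followed by 0.093 for Atp6v1a. At an unadjusted p under 0.05 there were 9 members, all higher in HPC (10.1% of all tested genes), namely Atp6v1a, Atp6v1b2, Atp6v0a1, Atp6v0a4, Gla, Neu1, Gaa, Man2b1 and Laptm4b. Of these, 4 are glycosidases. Leaving out the pair numbered 1, which leaves 1 residual degree of freedom, turned this into 8 members called (edgeR adjusted p under 0.05), beside 24.5% of all genes, with Cln3 as the 1 member lower in HPC, and no member was called without the pair numbered 2 or 3. DESeq2 with the block called Atp6v1a alone among the members (adjusted p = 0.042), against 4.19% of all tested genes.

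**Figure D5:**
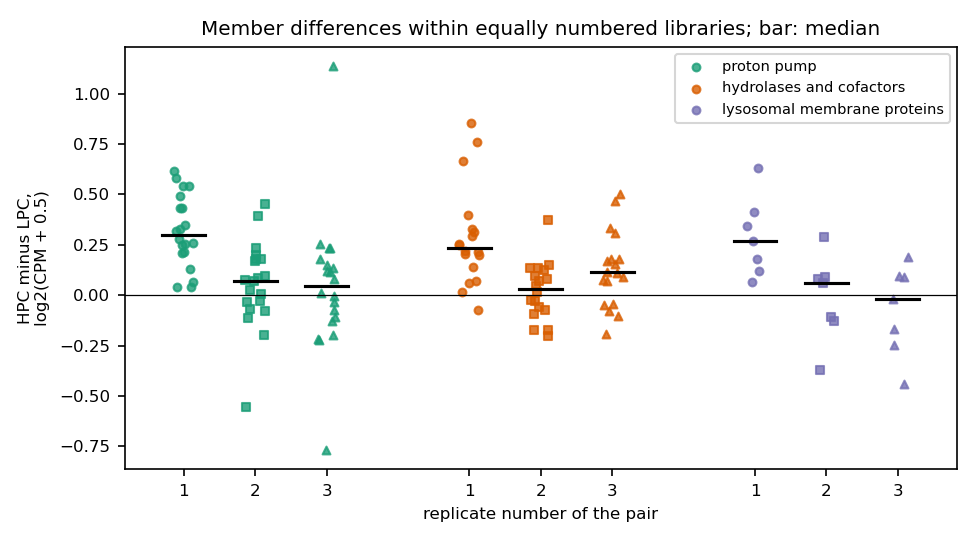
Difference between HPC and LPC libraries of the same replicate number on the log2(CPM + 0.5) scale (y axis) for each tested member (points), by class and by pair number (x axis), with the median as a bar. In pair 1 all pump genes lie above 0 with a median of 0.30, while pairs 2 and 3 scatter around medians of 0.071 and 0.047.

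Genes that work with the members were counted in the same fit. No gene of the 5 lists passed in edgeR with or without the block, while DESeq2 with the block called Ncoa7, Cd68 and Smpd1. These were 1 each of the 11, 14 and 30 tested genes of their lists, against 4.19% of all tested genes. None of the 10 and 18 tested genes of the other lists was called. In each of the next sentences counts are of genes at an unadjusted p under 0.05 without the block, beside 5.06% of all genes higher and 4.31% lower. Of 11 genes of pump assembly and regulation 2 were higher in HPC and none lower. These were Ncoa7, whose protein binds the pump, at 40.2 ± 2.81 CPM across HPC libraries against 28.9 ± 3.44 CPM across LPC (SD, n = 3 each), and Wdr7, part of the complex that joins V1 to V0, at 72.7 ± 2.57 CPM across HPC libraries against 57.3 ± 1.97 CPM across LPC. Their log2 fold changes were 0.48 and 0.34, with an edgeR adjusted p of 0.30 for each, and their groups did not overlap. The list's median was 0.22. Tcirg1 had 299, 263 and 341 CPM in HPC replicates 1, 2 and 3, against 277, 325 and 357 CPM in LPC replicates 1, 2 and 3 (log2 fold change -0.09, SE 0.14, edgeR adjusted p = 0.91).

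Of 14 lysosomal channel and other membrane genes 4 were higher in HPC and none lower. Ctns, the cystine exporter, had 123, 90.7 and 106 CPM in HPC replicates 1, 2 and 3, against 80.4, 75.0 and 86.6 CPM in LPC replicates 1, 2 and 3. Clcn7, the chloride-proton exchanger, had 285, 267 and 290 CPM in HPC replicates 1, 2 and 3, against 248, 221 and 222 CPM in LPC replicates 1, 2 and 3. Mcoln1, the calcium channel of lysosomes, had 163, 134 and 161 CPM in HPC replicates 1, 2 and 3, against 124, 107 and 133 CPM in LPC replicates 1, 2 and 3. In none of these 3 genes did the groups overlap, and their log2 fold changes were 0.40, 0.29 and 0.33 (edgeR adjusted p = 0.41, 0.46 and 0.49). Tmem175 of the same list had all HPC libraries below all LPC libraries, at 33.4 against 37.6 CPM on average (log2 fold change -0.17). Over all tested genes 7.16% lay wholly above and 7.18% wholly below. Cd68, a glycoprotein abundant in macrophages, had 12.9, 6.95 and 10.2 CPM in HPC replicates 1, 2 and 3, against 2.63, 4.23 and 7.10 CPM in LPC replicates 1, 2 and 3 (log2 fold change 1.10, SE 0.37, edgeR adjusted p = 0.42). Of 30 tested hydrolases outside the member list 2 were higher, Smpd1, acid sphingomyelinase (log2 fold change 0.50), and Arsb, a sulfatase (0.34), and none lower. With the block 7 were higher and 2 lower, against 10.1% and 8.66% of all genes.

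Of 10 genes that tag, mature or sort lysosomal enzymes none was higher and 1 lower. This was Gnptg, a subunit of the enzyme that adds the phosphate tag, at 28.8 ± 2.17 CPM across HPC libraries against 37.3 ± 5.57 CPM across LPC (SD, n = 3 each; log2 fold change -0.37, edgeR adjusted p = 0.49). Of 18 tested genes of the MITF family and of nutrient sensing at the lysosome 1 was higher, Fnip2, a partner of folliculin, at 88.3 ± 1.14 CPM across HPC libraries against 72.2 ± 8.95 CPM across LPC, and none lower. The factors themselves overlapped between the populations. Tfeb stood at 24.9, 33.3 and 45.5 CPM in HPC replicates 1, 2 and 3, against 21.4, 36.1 and 40.2 CPM in LPC replicates 1, 2 and 3, and Tfe3 at 74.4, 72.6 and 78.1 CPM in HPC replicates 1, 2 and 3, against 72.0, 82.5 and 91.1 CPM in LPC replicates 1, 2 and 3. Mitf had a log2 fold change of 0.05 (SE 0.14). By comparison the pigment enzyme gene Tyr averaged 919 ± 70.3 CPM across HPC libraries against 187 ± 109 CPM across LPC, a log2 fold change of 2.30, further from 0 than that of any member, which passed with the block (edgeR adjusted p = 0.021) and not without it (0.17).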

How the data were processed

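The authors deposited raw counts of reads per gene for 6 QuantSeq 3' mRNA-Seq FWD libraries, 1 column each. Per the submitters' processing notes, STAR and GRCm38 were used. For the counting program, annotation, strand setting and molecular identifiers, the sources used here give nothing. Reads lie at transcript ends, so counts were not divided by length, and levels are compared between groups rather than between genes. Genes were filtered with filterByExpr, scaled with TMM and tested with edgeR 4.0.16 (quasi-likelihood, R 4.3.3) on the whole table, group as the only term, Benjamini-Hochberg adjustment over 11921 genes, threshold 0.05. SEs come from the F statistic. DESeq2 1.42.0, limma-voom (limma 3.58.1), other scalings and filters, the replicate block and fits without each library were alternatives. Tests were checked on simulated counts with changes larger than that of any tested member and no effect shared by equally numbered libraries. The check therefore does not cover differences of the members' size.

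Deviations from the group means correlated at 0.42, 0.35 and 0.65 for the libraries numbered 1, 2 and 3, above the minimum of 0.1. Each library correlated best with its own number, although HPC replicate 2 also correlated with LPC replicate 1 at 0.20. The pairing rests on these correlations, since no label says what a number marks. Deviations of 3 libraries from their own mean sum to 0, so the correlations are bound to each other. How often arbitrary numbers would match in this way was not tested.

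The members and lists were chosen with earlier results of these data known. Values in every library were given for the 3 most abundant members of each of 3 classes (pump, hydrolases and cofactors, membrane proteins), members with an unadjusted p under 0.05 with or without the block or with groups that do not overlap, the 2 largest changes of each class at a mean of at least 5 CPM, and tested subunit paralogues. Other lists name up to 3 genes by smallest p. Further genes were named after their values were seen. All 50 members were found in GENCODE M21, 50 on the chromosome that the table gives. There, 7 members overlap another gene on their own strand (Glb1, Ctsd, Ctsl, Cln3, Atp6v0a1, Atp6v0a4 and Atp6v1e1). A further gene on the opposite strand overlaps 20 members, not all of which are named above. Promoter sequences are from RefSeq (GRCm38.p6).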

Additional observations from a re-analysis of the deposited data

How the results depend on the processing

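The number of genes called over the whole table was 5 without the block, 28 with no filter, 224 with DESeq2 and 301 with the replicate block, and ran from 0 to 43 as each library was left out. Of the proton pump genes 1 was called with DESeq2, without or with the block. With the block, all genes called were 301, against 5 without it and 500 with DESeq2, and ran from 0 (without pair 2) through 196 (without pair 3) to 2947 (without pair 1). These last fits leave 1 residual degree of freedom and carry little weight. Without the pair numbered 1, 24.5% of genes were called, with 3 pump genes (Atp6v1a, Atp6v1b2, Atp6v0a4) and 5 lysosomal genes (Gla, Gaa, Man2b1 and Laptm4b higher in HPC, Cln3 lower), against 0 of each without the pair numbered 2 or 3, so ranges of 0 to 3 and 0 to 5. Counting members in the paired fits was chosen after seeing the data. The block changed no call of a member.

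The medians of both groups stayed positive in all settings, from 0.089 (upper quartile) to 0.15 (without LPC replicate 2) for the pump and from 0.046 to 0.19 for the lysosomal genes. Over 45 tested members and 627 alternative values, 576 kept direction and side of the threshold, 1 newly passed (Atp6v1a, DESeq2, log2 fold change 0.36) and 50 changed sign, in 16 members, most of them near 0. With upper-quartile scaling the log2 fold change was -0.0014 for Grn, -0.024 for Ctsl, -0.017 for Atp6v1f and -0.011 for Atp6ap2. By library size only it was -0.0095 for Ctsl and -0.0019 for Atp6v1f. With a mean of at least 5 CPM it was -0.0041 for Ctsl. With no filter it was 0.00075 for Atp6v1c2, 0.0073 for Lamp1 and 0.0100 for Hexa. With limma-voom it was 0.013 for Atp6v1c2. With RLE scaling and with DESeq2 it was 0.0015 and 0.0015 for Hexa. Leaving out each library gave -0.061 to 0.097 for Grn, -0.11 to 0.065 for Sgsh, -0.094 to 0.14 for Laptm4a, -0.26 to 0.31 for Atp6v1c2, -0.18 to 0.096 for Npc2, -0.10 to 0.088 for Ctsl, -0.17 to 0.093 for Atp6v0c, -0.046 to 0.21 for Atp6v0e, -0.19 to 0.17 for Lipa, -0.045 to 0.26 for Ctsa, -0.16 to 0.13 for Atp6v1f, -0.11 to 0.14 for Atp6v1e1, -0.059 to 0.078 for Lamp1, -0.082 to 0.10 for Hexa, -0.017 to 0.065 for Atp6ap2 and -0.076 to 0.016 for Lamp2. The cause of these changes was not tested. Upper-quartile scaling moved the share of all genes with a positive log2 fold change to 42.1%, from 48.2%. How often differences of this size, mostly under 1.5-fold, would pass with 3 libraries per population was not tested.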
